A study of Homo sapiens with 7 samples.

Results

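The genes described here encode the proteins of the cytosolic ribosome. They were taken by symbol from the platform's probe annotation, as RPL or RPS followed by a number and, in some, a closing letter or digit, or as RPSA, RPLP0, RPLP1 or RPLP2. Kinases of RPS6 and pseudogenes were left out, and no measured value took part in the choice. The pattern matched 73 symbols, from which RPS26L and RPS26L1 were removed as pseudogenes. This left 71 genes with 88 probes, among 19304 genes with a symbol and 48701 probes in all. Of the 71 genes, 26 encode proteins of the small subunit or their paralogs, and 45 those of the large subunit. RPLP0 and RPSA had no probe under their names and were not analysed here.

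The shBrit1 group was 4 arrays and the shControl group 3 arrays of MCF-10A, a non-transformed human mammary epithelial cell line. The shBrit1 cells had been selected for a lentiviral construct whose hairpin RNA is directed at Brit1, and the shControl cells carried a scrambled hairpin. The series text counts Brit1 among the genes of homologous recombination, a repair route for broken DNA, and the comparison asks how gene expression differs once it is knocked down. Cells of both groups were plated at 200000 per 10 cm dish in the same medium and collected after 48 hours. The series text calls the replicates biological but does not say whether they came from separate transductions, so the p-values cover the spread between these cultures only. The targeted gene was not analysed here, and the groups are named from the labels.

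Each ribosome is built from a small subunit, which reads the messenger RNA, and a large subunit, which joins the amino acids. Assembled ribosomes hold most of these proteins in a near-fixed ratio. Most of the messenger RNAs of ribosomal proteins begin with a run of pyrimidines, the TOP motif. Through it mTORC1 signalling and the RNA-binding protein LARP1 set how much of them is translated. In growing epithelial cells these messenger RNAs are among the most abundant, and free ribosomal proteins can bind MDM2 and so act on p53.

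The start sites of a few members are shown because the TOP motif is what most of these genes share. They are RefSeq sequences of GRCh38.p14, 30 bases long, from 15 bases before the annotated start to 15 bases from it onward, with capitals marking an unbroken run of at least 7 pyrimidines that begins with C within 15 bases of the start. In RPS15 the run goes on past the end of the window, so its capitals show only the first part.
RPL28: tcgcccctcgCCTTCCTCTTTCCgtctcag
RPL13A: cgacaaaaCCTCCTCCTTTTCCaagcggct
RPL37A: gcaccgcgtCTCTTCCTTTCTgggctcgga
RPS23: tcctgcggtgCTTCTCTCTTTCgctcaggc
RPL41: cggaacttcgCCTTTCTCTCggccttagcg
RPS15: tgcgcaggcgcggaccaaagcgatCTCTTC
RPS26: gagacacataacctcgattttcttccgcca
RPS27: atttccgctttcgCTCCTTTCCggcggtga
RPS27L: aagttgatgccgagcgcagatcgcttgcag
The windows lie at chr19:55385917-55385946 on the plus strand for RPL28, chr19:49487593-49487622 (plus) for RPL13A, chr2:216498829-216498858 (plus) for RPL37A and chr5:82278340-82278369 (minus) for RPS23. Those of RPL41, RPS15 and RPS26 lie at chr12:56116618-56116647, chr19:1438381-1438410 and chr12:56041903-56041932, each on the plus strand. The paralogs RPS27 and RPS27L start at chr1:153990747-153990776 (plus) and chr15:63157463-63157492 (minus). RPL28, RPL13A, RPL37A and RPS23 were higher in shBrit1 cells and RPL41, RPS15 and RPS26 lower, as described below, while RPS27 and its paralog RPS27L differ from each other in these letters.

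Of the 71 members, 60 had a RefSeq promoter, and 46 of these (76.7%) held such a pyrimidine run, against 18% of 15482 protein-coding promoters. Other letters were counted on both strands from 250 bases before the start to 50 after it. CCGGAAG, the core of ETS family sites, was in 35% of the members' promoters, against 14.4% of all. TCTCGCGA was in 18.3% against 1.79%, and TATAAA in 10% against 9.6%. CCAAT was in 28.3% against 36.5%, GGGCGG in 53.3% against 59.1% and CACGTG in 6.67% against 8.91%. Among tested members, the 44 with the pyrimidine run had a median log2 difference of 0.20, with 16 higher and 3 lower in shBrit1 cells. The 12 without it had a median of 0.06, with 3 higher and 2 lower. Over all genes tested 29.5% were higher and 30.1% lower, so the share higher was near that of all genes in members with the run and without it, and the difference between them was not tested.

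RNA was measured on Illumina bead arrays, which give the brightness of each probe and a detection p-value set against negative control probes. Detection p-values under 0.05 were reached by 17085 to 17343 probes on the shBrit1 arrays and 16537 to 17331 on the shControl arrays. Values below are normalized log2 signals, on which 1 unit is a doubling. Over kept probes the shBrit1 arrays correlated with each other at 0.995 to 0.998 and shControl replicates 1 and 2 at 0.997, while shControl replicate 3 stood apart at 0.975 and 0.977 to the other 2 controls. Arrays of different groups correlated at 0.93 to 0.937. The difference between the groups ran through most of the array, with 3653 higher and 3718 lower of 12372 genes tested. Scaling by the median in place of quantiles took the median of all genes to -0.15, against -0.01 with quantiles, and gave 2625 higher and 4479 lower. Of the mammary epithelial markers, KRT14, KRT5 and EPCAM were lower, 4 others were not called, and their summed level was 14.56 to 14.64 in shBrit1 cells against 15.09 to 15.84 in shControl cells. The fibroblast collagens COL1A1 and COL3A1 were higher, with 5 other fibroblast markers not tested for want of detection, and their sum was 7.88 to 8.11 against 6.85 to 7.12. Of the blood cell markers CD68 and CD14 were higher, with a sum of 10.77 to 11.11 against 8.83 to 8.90, while PTPRC, CD3E and HBB were not tested for want of detection. The part of these shifts in the results below was not tested.

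Of the 71 ribosomal protein genes, 66 were detected on at least 3 arrays and tested, each by its brightest probe. RPL3L, RPL10, RPL10L, RPL22L1 and RPS4Y1 were detected on no array. RPL10 is a standard gene rather than a paralog, and whether its probe works was not tested. Lack of detection is thus not read as lack of expression. Of the 66, 23 were higher in shBrit1 cells (34.8%, against 29.5% of all genes tested), 5 were lower (7.58%, against 30.1%) and 38 were not called, by limma with Benjamini-Hochberg adjustment over all kept probes at 0.05. The log2 difference, shBrit1 minus shControl, was above 0 for 49 of 66, and its median was 0.19, against -0.01 over all genes. Thus by these calls the share higher was near that of the array as a whole, and the share lower was small beside it. The arrays of the groups did not overlap for 32 of the 66 members on the higher side and 5 on the lower side. Among all 12372 genes tested this held for 3780 (30.6%) and 3860 (31.2%). By this measure the share higher was above that of all genes. Without shControl replicate 3 the counts were 25 higher and 9 lower and the median 0.12. Calls then rose over the whole array too, to 4244 higher and 4227 lower of 12125 genes tested. The median was 0.14 under median scaling, where that of all genes was -0.15, and 0.36 under cyclic loess. Cyclic loess called 36 members higher and 5 lower, beside 3603 and 3781 of 12372 genes, so the share higher turned on the normalization.

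**Figure D1:**
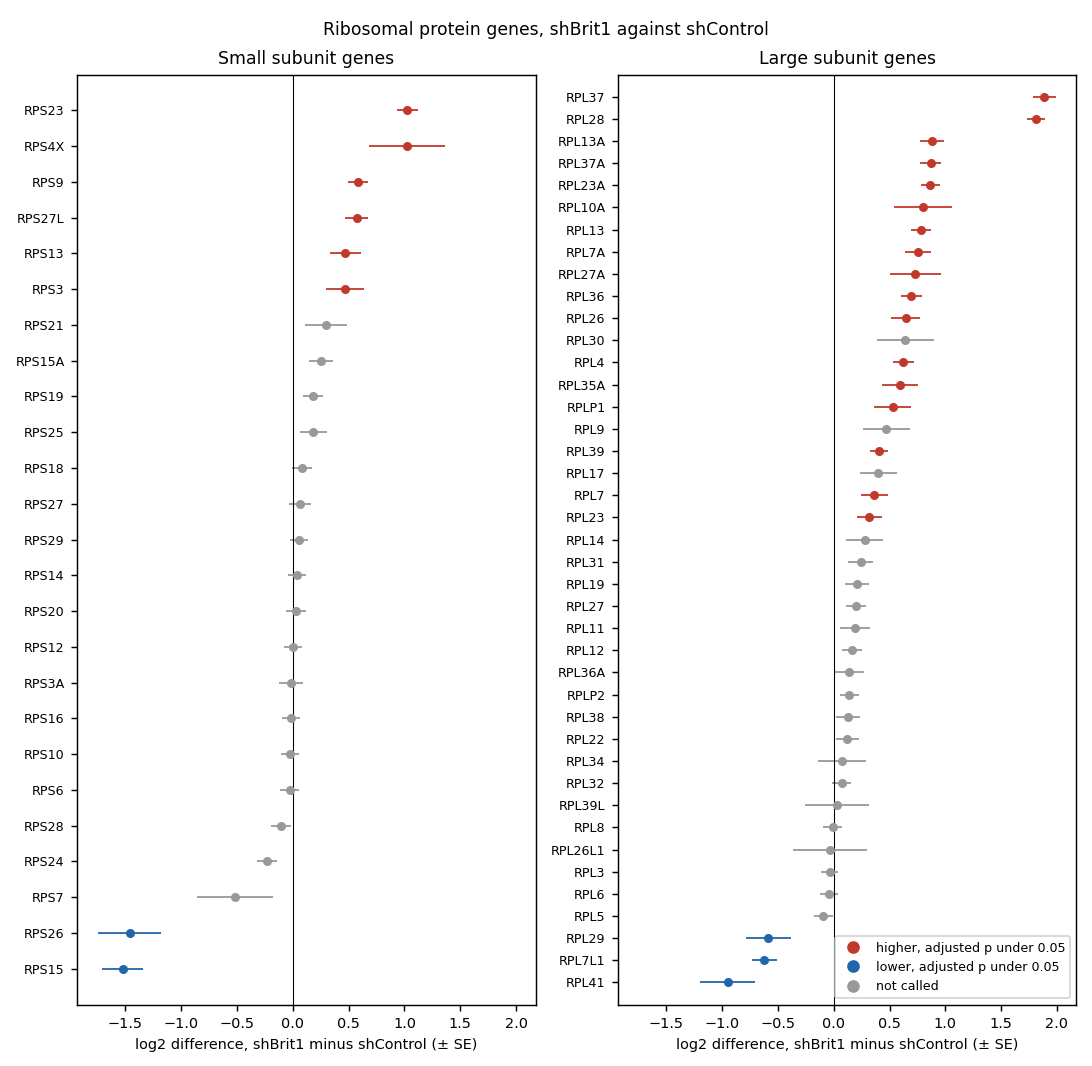
Log2 difference (shBrit1 minus shControl) with its standard error for each of the 66 tested ribosomal protein genes, 25 of the small subunit on the left and 41 of the large on the right, coloured by call at an adjusted p of 0.05. Most points lie between 0 and 1, RPL37 and RPL28 stand out on the higher side, and RPS15 and RPS26 on the lower side.

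Large subunit genes had a median difference of 0.28, with 17 higher (41.5%), 3 lower (7.32%) and 21 not called of 41. Over all genes tested 29.5% were higher and 30.1% lower. For RPL37, which encodes a zinc-binding protein, signals were 10.08, 10.24, 10.26 and 10.36 in shBrit1 cells, against 8.41, 8.42 and 8.21 in shControl cells. Every shBrit1 array lay far above every shControl array, and the difference was 1.89 ± 0.10 (SE), 3.70-fold, with an adjusted p of 1.4e-06 by limma. RPL28, whose protein is absent from budding yeast ribosomes, had 11.18, 11.11, 11.27 and 11.18 in shBrit1 cells, against 9.39, 9.32 and 9.40 in shControl cells. Here too the groups were far apart and tight, with a difference of 1.81 ± 0.08 (3.52-fold, limma adjusted p 6.43e-07). Both genes were called higher under each of the 18 settings tried.

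RPL13A, whose protein can leave the ribosome to silence messenger RNAs of inflammation, had 14.31, 14.28, 14.24 and 14.22 in shBrit1 cells, against 13.49, 13.50 and 13.15 in shControl cells. The groups did not overlap, and replicate 3 was the lowest control. The difference was 0.88 ± 0.11 (1.84-fold, limma adjusted p 1.42e-04). RPL37A, another zinc-binding protein, had 11.48, 11.38, 11.43 and 11.37 in shBrit1 cells, against 10.59, 10.67 and 10.38 in shControl cells. All shBrit1 arrays were again above all controls, by 0.87 ± 0.10 (1.83-fold, limma adjusted p 8.27e-05). RPL23A sits at the mouth of the exit tunnel, where the signal recognition particle docks. Its signals were 12.37, 12.32, 12.29 and 12.29 in shBrit1 cells, against 11.37, 11.46 and 11.54 in shControl cells, with no overlap and a difference of 0.86 ± 0.08 (1.82-fold, limma adjusted p 3.71e-05). Under median scaling RPL37A was at 0.51 and RPL23A at 0.53, both still called.

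RPL10A, the protein of the mobile stalk that guides spent transfer RNA out, had 13.55, 13.44, 13.45 and 13.43 in shBrit1 cells, against 13.13, 12.99 and 11.89 in shControl cells. The groups did not overlap, and shControl replicate 3 lay far below the other controls. The difference was 0.80 ± 0.26 (1.74-fold, limma adjusted p 0.0288). Without shControl replicate 3 it was 0.42 (adjusted p 0.00132), and the call was lost without any 1 of the shBrit1 arrays (adjusted p 0.0612 to 0.077), under median scaling (0.0635) and with no filter on dim probes (0.0855). The remaining large subunit genes called higher were RPL13, RPL7A, RPL27A, RPL36, RPL26, RPL4, RPL35A, RPLP1, RPL39, RPL7 and RPL23, from 0.78 for RPL13 to 0.32 for RPL23. RPL4, which reaches into the exit tunnel, was higher by 0.62 ± 0.09, and RPL35A, mutated in some Diamond-Blackfan anaemia, by 0.59 ± 0.16 (0.37 without shControl replicate 3).

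Small subunit genes had a median difference of 0.05, and this median was -0.02 under median scaling. Of the 25, 6 were higher (24%, against 29.5% of all genes tested), 2 lower (8%, against 30.1%) and 17 not called. RPS23, whose protein lies at the decoding centre, had 9.87, 9.71, 9.93 and 9.71 in shBrit1 cells, against 8.74, 8.80 and 8.79 in shControl cells. The groups were well apart, with a difference of 1.03 ± 0.09 (2.04-fold, limma adjusted p 2.28e-05). RPS4X, the X-linked copy of a gene that also has copies on the Y chromosome, had 14.11, 14.05, 13.99 and 14.17 in shBrit1 cells, against 13.64, 13.51 and 12.02 in shControl cells. The arrays did not overlap, but shControl replicate 3 lay far below the other controls. The difference was 1.03 ± 0.34 (limma adjusted p 0.0305), and 0.52 without that array (adjusted p 4.39e-04). Leaving out any 1 shBrit1 array took its adjusted p to between 0.0578 and 0.0773, and it was 0.0946 with no filter on dim probes.

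The other small subunit genes called higher were RPS9 (0.59), RPS27L (0.57), RPS13 (0.47) and RPS3 (0.47). RPS9 and RPS3 line the channel by which messenger RNA enters. Without shControl replicate 3 the difference was 0.51 for RPS9, 0.30 for RPS13 and 0.22 for RPS3, each still called. RPS13 was at 0.73 under cyclic loess and lost its call with the replicate number as a block (adjusted p 0.0603). Over the 18 settings RPS3 was called in 11, RPL27A in 11, RPL7 in 10 and RPL23 in 9, so these calls were the least stable among the members that were higher.

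The genes that were lower were few, and all 5 had a mean log2 signal under 12, while the median member lay at the 99.21th percentile. None of them had a further probe to set beside it. In RPL13, RPL36 and RPL6, described below, a dim probe was lower while the brighter ones were higher or not called. RPS15, whose protein is needed for the pre-small subunit to leave the nucleus, had 8.82, 8.50, 8.57 and 8.62 in shBrit1 cells, against 10.38, 10.42 and 9.66 in shControl cells. Every shBrit1 array was below every control, the third control being the nearest, and the difference was -1.53 ± 0.19 (2.88-fold lower, limma adjusted p 1.41e-04). RPS26, which lies where messenger RNA leaves the small subunit and is mutated in some Diamond-Blackfan anaemia, had 5.86, 5.39, 5.68 and 5.77 in shBrit1 cells, against 7.51, 7.56 and 6.33 in shControl cells. Again no arrays overlapped, and the difference was -1.46 ± 0.28 (2.75-fold lower, limma adjusted p 0.0021). This probe is dim, and the difference was -0.87 without background correction and on the authors' deposited log2 values (adjusted p 0.00382 in each), and -0.91 with normexp without negative controls. RPL41, the shortest ribosomal protein, had 7.04, 6.90, 7.16 and 7.25 in shBrit1 cells, against 8.32, 8.44 and 7.35 in shControl cells. The third control came close to the shBrit1 arrays without overlap, and the difference was -0.95 ± 0.24 (1.93-fold lower, limma adjusted p 0.00922).

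RPL29, also known as a heparin-binding protein, had 10.33, 9.91, 10.04 and 9.94 in shBrit1 cells, against 10.90, 10.90 and 10.12 in shControl cells. The groups overlapped through shBrit1 replicate 1 and shControl replicate 3. The difference was -0.58 ± 0.20 (1.5-fold lower, limma adjusted p 0.0352), and it was -0.84 without shControl replicate 3. The call was lost without shBrit1 replicate 2, 3 or 4 or shControl replicate 1 or 2 (adjusted p 0.0753 to 0.122), with no filter on dim probes (0.0933) and with a replicate block (0.0531), while median scaling gave -0.92 (0.00294). RPS7, a protein that binds MDM2, had 10.30, 10.01, 10.17 and 10.04 in shBrit1 cells, against 11.20, 11.13 and 9.61 in shControl cells. The third control lay below all shBrit1 arrays and the other 2 above them, so the difference of -0.52 ± 0.34 was not called (limma adjusted p 0.238). Without shControl replicate 3 it was -1.03 (adjusted p 4.65e-06). RPS15, RPS26, RPL41 and RPL7L1, described with the paralogs, were called lower under all 18 settings.

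**Figure D2:**
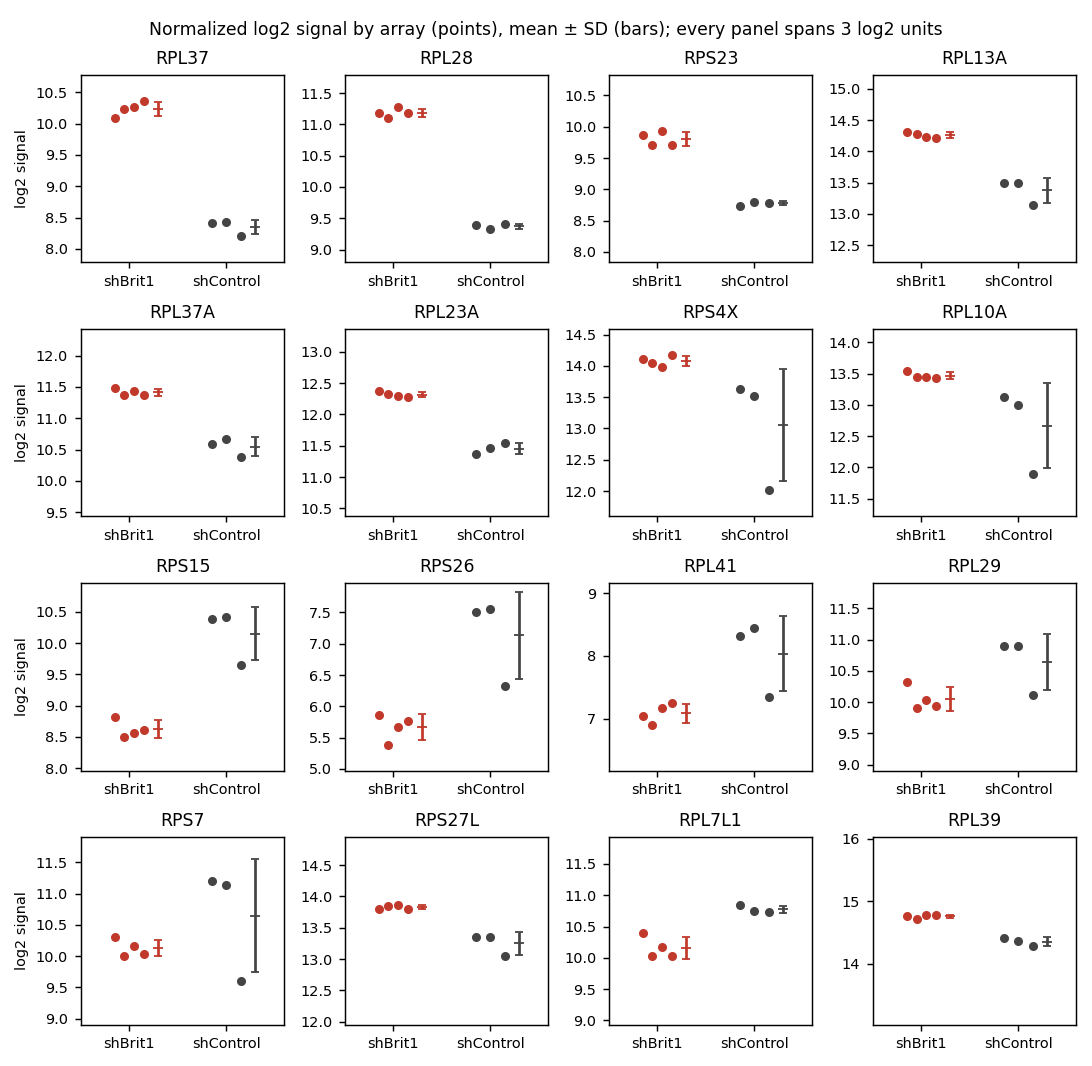
Normalized log2 signal on each of the 4 shBrit1 arrays (left in each panel) and 3 shControl arrays (right) for 16 ribosomal protein genes, with the mean and SD beside the points; every panel spans 3 log2 units, at a different height. RPL37, RPL28 and RPS23 show tight, separate groups, while RPS4X, RPL10A and RPS7 show 1 control array, replicate 3, well below the other 2.

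RPS6, RPL5 and RPL11, known for growth signalling or for the p53 response, were not called. RPS6, the substrate of the S6 kinases, had 14.93, 14.96, 14.97 and 15.02 in shBrit1 cells, against 14.99, 15.09 and 14.90 in shControl cells. The groups overlapped, with a difference of -0.03 ± 0.09 (limma adjusted p 0.814). Before normalization RPS6 read 36175 on shControl replicate 2, the highest signal of that array, and saturation was not tested. RPL5 and RPL11, which together with 5S rRNA bind MDM2, differed by -0.09 ± 0.09 and 0.19 ± 0.13 and were not called (limma adjusted p 0.415 and 0.258). RPL11 had 14.90, 14.92, 14.86 and 14.92 in shBrit1 cells, against 14.91, 14.85 and 14.37 in shControl cells, so that only the third control was low.

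Of the stalk that recruits translation factors, RPLP1 had 13.49, 13.56, 13.47 and 13.62 in shBrit1 cells, against 12.55, 13.20 and 13.27 in shControl cells. The groups were apart, with shControl replicate 1 the lowest here, and the difference was 0.53 ± 0.17 (limma adjusted p 0.0242). It was 0.32 without shControl replicate 1, and the call was lost without shBrit1 replicate 1, 2 or 4 (adjusted p 0.0527 to 0.0649). It was also lost under median scaling (0.39, adjusted p 0.113), with no filter on dim probes (0.0594) and with a replicate block (0.0514). Its partner RPLP2 had 14.43, 14.36, 14.32 and 14.33 in shBrit1 cells, against 14.29, 14.14 and 14.22 in shControl cells. These arrays did not overlap either, but the difference of 0.14 ± 0.08 was not called (limma adjusted p 0.2).

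shControl replicate 3 stood apart within the ribosomal protein genes as well. Set against each gene's mean over the 7 arrays, the median deviation of the members was 0.13, 0.08, 0.08 and 0.07 on the shBrit1 arrays, against -0.02, -0.04 and -0.29 on the shControl arrays. The shBrit1 arrays thus lay close together, and the third control lay well below the other 2. Over all genes the same medians were between -0.02 and 0.02. Replicate 3 was below the mean of the other controls in 42 of 66 members, and over all 66 the median of this difference was -0.15. The median SD over members was 0.0663 among shBrit1 arrays and 0.1765 among shControl arrays, and 0.1089 and 0.1736 over all genes tested.

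The difference also varied with the level of the signal. Ranked by mean signal, the median member lay at the 99.21th percentile of all genes tested, and 38 members were in the top 1%. The 38 with a mean log2 signal of 14 or more, a limit set after the data were seen, ranged from 14.11 to 14.98. Of these, 6 were higher, 0 lower and 32 not called by limma, with a median difference of 0.13. Of all 129 genes that bright, these 38 members among them, 14% were higher and 15.5% lower. The 28 dimmer members had 17 higher, 5 lower and 6 not called, with a median of 0.55, where 29.7% of all genes that dim were higher and 30.2% lower. Between 12 and 14, 11 of 12 were higher and 0 lower, and 7 and 0 under median scaling. Below 12, 6 were higher and 5 lower of 16, and 5 and 5 under median scaling. The shares of all genes within these ranges were not computed. Under cyclic loess the brightest members had 19 higher and 0 lower, so how many of them are called turned on the normalization. Before normalization their signals spanned 9775 to 36175, where the brightest probe of any kind read 34160 to 38596 on the shBrit1 arrays and 31372 to 36175 on the shControl arrays. Saturation of the brightest probes was not tested.

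**Figure D3:**
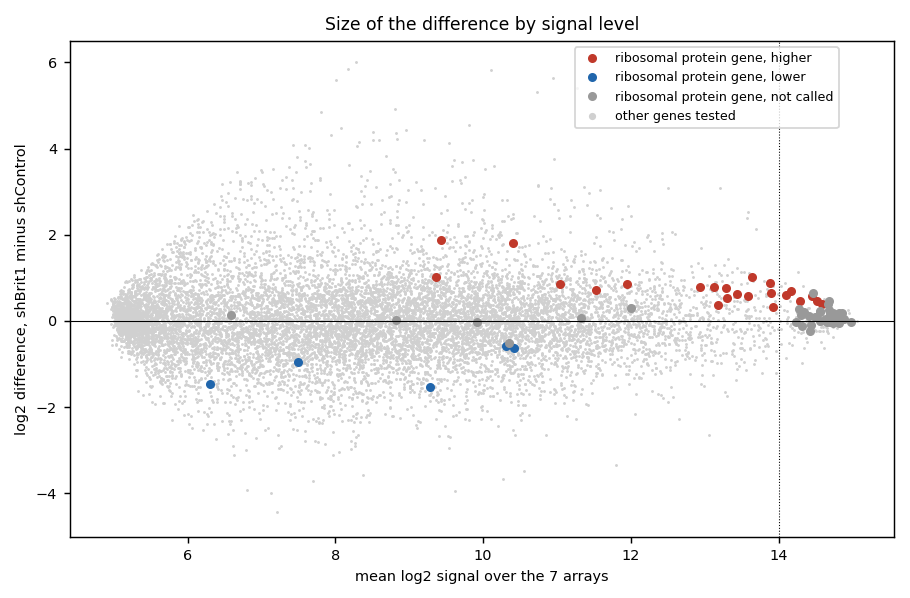
Log2 difference (shBrit1 minus shControl) against the mean log2 signal over the 7 arrays for all 12372 genes tested (light points) and the 66 ribosomal protein genes (coloured by call); the dotted line marks a mean of 14. The members right of the line form a dense cluster near 0, and those left of it spread from -1.53 to 1.89.

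Probes of one gene did not always tell the same story. In all, 83 member probes were tested, of which 31 were higher, 8 lower and 44 not called, beside 26.9% higher and 26.9% lower of all probes. For 15 genes there were at least 2 tested probes, 32 in all. The sign was shared by every probe in 12 of the 15, and the median gap between the highest and the lowest probe of a gene was 0.58. All 3 probes of RPS9 were higher, at 0.59, 0.41 and 0.87. For RPL12, RPL14, RPL17, RPL22, RPL32 and RPL34 the dimmer probe was called higher and the brighter one was not. In RPL17 the dimmer probe differed by 1.64 ± 0.31 and the brighter by 0.40 ± 0.17. For RPL8, RPL9, RPS27, RPS29 and RPS3A no probe was called.

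Opposite calls were found in RPL13 and RPL36. The brighter probe of RPL13 had 13.35, 13.25, 13.32 and 13.15 in shBrit1 cells, against 12.59, 12.41 and 12.46 in shControl cells, a difference of 0.78 ± 0.09. Its dimmer probe had 8.34, 8.17, 7.94 and 7.89 in shBrit1 cells, against 9.35, 9.16 and 8.15 in shControl cells, a difference of -0.80 ± 0.27. The groups were apart on the brighter probe and overlapped on the dimmer one. For RPL36 the brighter probe had 14.57, 14.45, 14.36 and 14.45 in shBrit1 cells, against 13.88, 13.78 and 13.63 in shControl cells, and the dimmer had 7.94, 7.58, 7.59 and 7.56 against 8.62, 8.71 and 8.29. The groups were apart on both probes, with differences of 0.70 ± 0.10 and -0.87 ± 0.14, so the direction of RPL13 and RPL36 rests on which probe is read. RPL6 had -0.05 and -0.13 on its brighter probes, neither called, and -1.80 ± 0.33 on the dimmest, which was called lower. Ribosomal protein genes have many processed pseudogenes, whose transcripts a probe may also bind. Probe sequences were not used here, and binding to such copies was not tested.

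**Figure D4:**
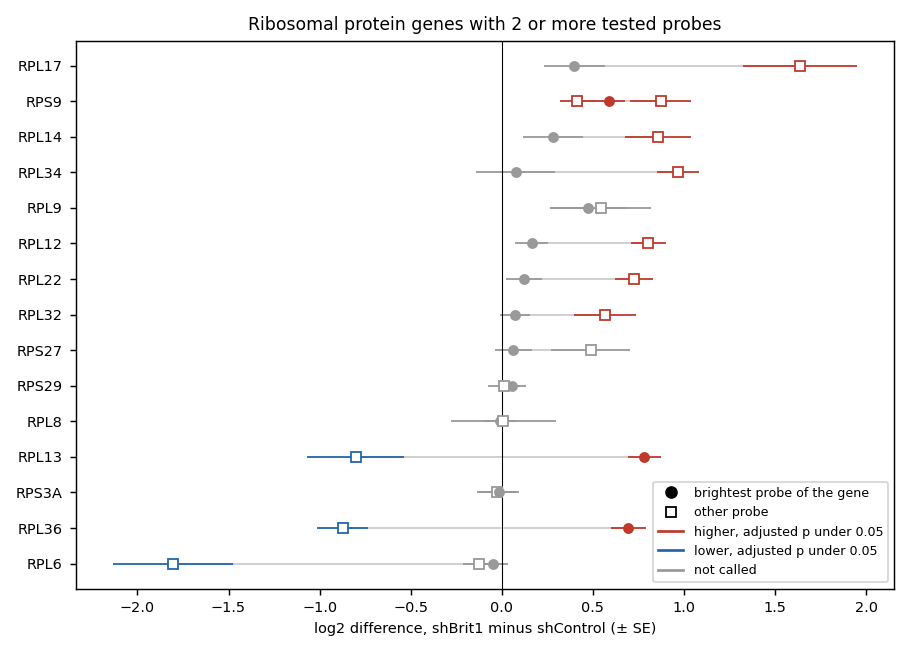
Log2 difference (shBrit1 minus shControl) with its standard error for every tested probe of the 15 ribosomal protein genes with at least 2 of them; filled circles are the brightest probe of a gene, open squares the others, coloured by call. Probes of RPL13 and RPL36 lie on opposite sides of 0, and those of RPS3A, RPL8 and RPS29 nearly coincide.

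A few members are paralogs, which can take the place of the standard protein in some ribosomes or have gained other roles. Of 8 listed pairs 4 had both genes measured, and the log2 ratio of paralog to standard gene was compared between the groups by exact two-sided permutation over arrays, where the smallest p the design allows is 0.0571 before adjustment. RPS27L, a paralog of RPS27 that p53 induces, had 13.80, 13.85, 13.86 and 13.79 in shBrit1 cells, against 13.35, 13.36 and 13.04 in shControl cells. The groups did not overlap, and RPS27L was higher by 0.57 ± 0.10 (1.49-fold, limma adjusted p 0.00135). RPS27 itself differed by 0.06 ± 0.10 on its brightest probe and was not called. The ratio of RPS27L to RPS27 was 0.51 higher in shBrit1 cells, with no overlap of arrays (exact permutation p 0.0571, 0.114 adjusted over the 4 pairs). With the mean of all kept probes this difference was 0.30 (adjusted exact permutation p 0.152), and RPS27 was then called higher, by 0.28 (limma adjusted p 0.0498).

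RPL7L1, a paralog of RPL7 whose yeast relative acts in assembly of the large subunit, had 10.39, 10.03, 10.17 and 10.02 in shBrit1 cells, against 10.84, 10.75 and 10.74 in shControl cells. All shBrit1 arrays were below all controls, and RPL7L1 was lower by 0.62 on the log2 scale (SE 0.11, 1.54-fold lower, limma adjusted p 0.00128). RPL7 was higher by 0.36 ± 0.12 (limma adjusted p 0.0323), a call that was lost without any 1 shBrit1 array or shControl replicate 1 (adjusted p 0.0524 to 0.106). It was lost as well with a replicate block (0.111), with no filter on dim probes (0.0552) and under median scaling, where RPL7 was at 0.17 (adjusted p 0.398) and RPL7L1 at -0.96. The ratio of RPL7L1 to RPL7 differed by -0.99 with no overlap (exact permutation p 0.0571, 0.114 adjusted).

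RPL26L1 and RPL39L were not called, at -0.04 ± 0.33 and 0.03 ± 0.29. RPL26L1 had 10.06, 9.81, 9.89 and 9.84 in shBrit1 cells, against 10.45, 10.42 and 8.94 in shControl cells, with only the third control below the shBrit1 arrays. Without that array both were called lower, RPL26L1 at -0.53 (limma adjusted p 4.81e-04) and RPL39L at -0.37 (adjusted p 0.0276). Their standard genes were higher, RPL26 by 0.64 ± 0.13 and RPL39 by 0.40 ± 0.08 (limma adjusted p 0.0029 and 0.00264), with RPL39 at 0.64 under cyclic loess. The ratio of RPL26L1 to RPL26 differed by -0.68 and that of RPL39L to RPL39 by -0.37, and neither pair's arrays were apart (exact permutation p 0.114 and 0.286, adjusted 0.152 and 0.286). For RPL39L and RPL39 it was -0.64 under both median scaling and cyclic loess (adjusted p 0.286 and 0.229).

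Several members serve as reference genes in quantitative PCR. Of 9 measured, RPL37A, RPL13A and RPS13 were higher, and RPL30, RPL27, RPL19, RPS18, RPL32 and RPS20 were not called. On the array as a whole 29.5% of genes tested were higher and 30.1% lower, the shares to set beside each list here. The share of 3 in 9 was near that of all genes. Under cyclic loess 7 of the 9 were higher. Among 11 other common reference genes 3 were higher and 5 lower, against 1 and 5 under median scaling and 2 and 2 under cyclic loess. Of all 12372 genes, 2625 were higher and 4479 lower under median scaling, and 3603 and 3781 under cyclic loess. Of these 11 reference genes, B2M was higher by 1.43 ± 0.09, and HPRT1 and TBP were lower, at -1.16 ± 0.22 and -0.42 ± 0.10. B2M, HPRT1 and TBP kept their calls under both scalings, with TBP at -0.69 under median scaling. Of 14 measured members mutated in Diamond-Blackfan anaemia, RPL26 and RPL35A were higher, RPS26 lower and 11 not called, with a median of 0.06 that was -0.04 under median scaling. Outside the rule, FAU, whose product includes a small subunit protein, was higher by 0.33 ± 0.09 and RPL36AL was not called. FAU was at 0.57 under cyclic loess and lost its call with a replicate block (adjusted p 0.0667).

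Other genes listed as having messenger RNAs with the TOP motif, mainly translation factors, were higher or not called. Of the 22 listed, 14 had a RefSeq promoter, and 10 of these (71.4%) held the pyrimidine run counted above. Of 19 tested, 14 were higher (73.7%, against 29.5% of all genes tested) and 0 lower (against 30.1%) by limma, with a median of 0.57. Under median scaling 8 were higher and 0 lower, with a median of 0.36. EIF4B, which helps unwind messenger RNA, had 12.56, 12.68, 12.82 and 12.73 in shBrit1 cells, against 11.70, 11.51 and 11.48 in shControl cells. The groups were far apart, at 1.13 ± 0.10 (2.19-fold, limma adjusted p 2.13e-05). PFDN5, a prefoldin subunit, was higher by 0.91 ± 0.10 and NOP53, a factor of ribosome assembly, by 0.93 ± 0.11. The elongation factor EEF1A1 differed by 0.01 ± 0.08 and was not called. Among host genes of small nucleolar RNAs, EPB41L4A-AS1 and SNHG5 were higher, by 2.04 ± 0.13 and 0.47 ± 0.09, and these were the only 2 of the 4 with a named probe that were detected well enough to be tested.

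Genes that handle ribosomal proteins or make ribosomal RNA lay mostly on the other side. Of 17 chaperones, assembly factors and kinases of ribosomal proteins, 3 were higher (17.6%) and 13 lower (76.5%), with a median of -0.52. For this list and the RNA polymerase I list below, the matching shares on the whole array were 29.5% and 30.1%. LTV1, which is needed to finish the small subunit, had 9.10, 9.08, 9.06 and 9.15 in shBrit1 cells, against 11.21, 11.17 and 11.09 in shControl cells. It was lower in every shBrit1 array by a wide margin, at -2.06 ± 0.08 (4.17-fold lower). HEATR3, which carries RPL5 into the nucleus, was lower by 1.74 on the log2 scale (SE 0.09), and RIOK3, a kinase of the small subunit, was higher by 1.43 ± 0.08. Of 16 genes of the RNA polymerase I machinery, 1 was higher (6.25%) and 13 lower (81.2%), with a median of -0.57. Those lower included POLR1C at -0.78, TAF1A at -1.61 and RRN3 at -1.04. TAF1A was at -1.07 without background correction. POLR1D was the gene that was higher.

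Genes of mTORC1 signalling and of TOP translation control had 9 higher, 5 lower and 6 not called of 20, where 29.5% of all genes were higher and 30.1% lower, and a median of 0.01 that was -0.11 under median scaling. RRAGD, a GTPase that brings mTORC1 to the lysosome, was higher by 4.31 ± 0.16 on the log2 scale, and by 3.17 without background correction or on the authors' deposited log2 values. Its fold is uncertain, since its shControl signals of 5.30, 5.23 and 5.92 lay near the dimmest detected probes. EIF4EBP1, which blocks cap-dependent translation until mTORC1 phosphorylates it, was lower by 1.67 on the log2 scale (SE 0.09), and MTOR by 1.22 (SE 0.14). DEPTOR, an inhibitor of mTORC1, was called higher, but it was detected on only 1 of 3 shControl arrays. LARP1 differed by -0.21 ± 0.09 and was not called.

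**Figure D5:**
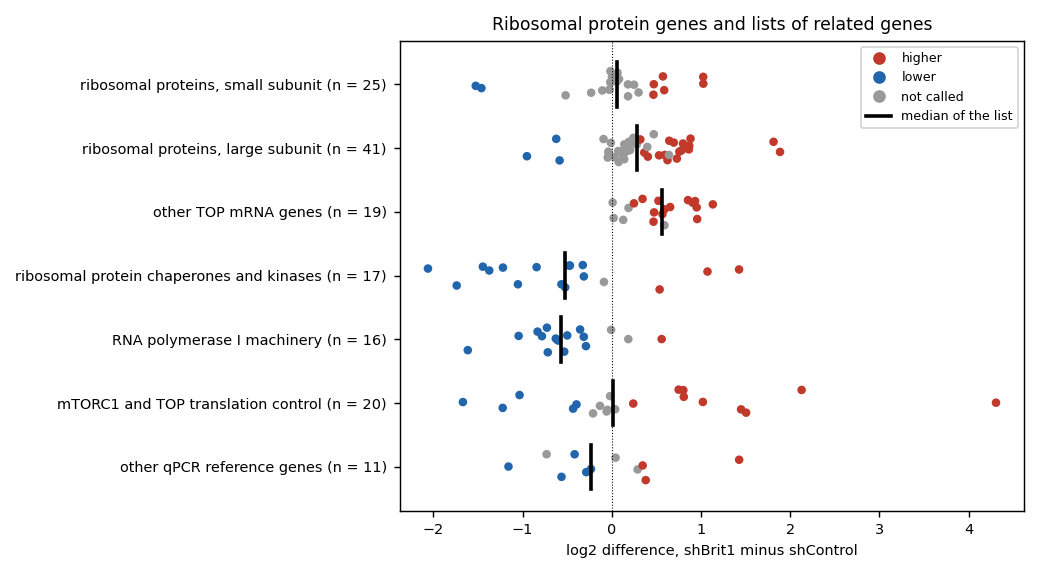
Log2 difference (shBrit1 minus shControl) of each tested gene in 7 lists, coloured by call at an adjusted p of 0.05, with a bar at the median of each list. Ribosomal protein genes of both subunits and other TOP genes lie mostly at or above 0, and the chaperone and kinase list and the RNA polymerase I list mostly below it.

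Probes annotated with symbols of ribosomal protein pseudogenes, kept apart from the members, numbered 79 genes among those tested. Of these, 28 were higher, 7 lower and 44 not called, with a median of 0.20. These values lie near those of the members, but the share higher was also near that of all genes, and only the share lower was small beside it. A probe's signal was not split between a gene and its copies.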

How the data were processed

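The data are 7 Illumina bead arrays of MCF-10A RNA, 4 shBrit1 and 3 shControl. Per the file headers, the authors deposited, for every probe on each array, a linear intensity with its detection p-value. The intensities were not normalized between arrays. Log2 values deposited for the same arrays served as an alternative. No source used here names the scanner software. Of 48701 probes, 24782 had 1 gene symbol in the platform annotation and 23919 had none.

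Signals were corrected and quantile-normalized with neqc of limma 3.58.1 in R 4.3.3 (offset 16, negative controls inferred from the deposited detection p-values). A probe was kept if at least 3 arrays gave it a detection p-value below 0.05, which left 17967 probes. Groups were compared with lmFit and eBayes (two-sided). P-values were adjusted by Benjamini-Hochberg across these probes and called below 0.05. A gene was read by its probe with the highest mean, and folds were taken from log2 differences. The step was tested on simulated data. Promoters came from RefSeq (GRCh38.p14). The number of arrays limits the precision.

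Named genes were the 8 members with the highest and the 8 with the lowest difference, measured paralogs with their standard genes, RPLP1, RPLP2, RPS6, RPL5, RPL11, members with probes called in opposite directions, and up to 3 of each other list by p. Others are named as examples and were chosen after their values were seen. The members, lists and tests were chosen with earlier results of these data known. Alternatives were other background corrections, normalizations, probe filters, probe rules, eBayes settings, a replicate block and leaving out each array.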

Additional observations from a re-analysis of the deposited data

Results flagged for a closer look

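Of 58 named genes checked within the 4 shBrit1 arrays, 4 had 1 array far from the other 3, where chance gives about 1 in 20. RPS28 on shBrit1 replicate 1 was at 14.2603, below the other 3, which shared the value 14.2719, so the gap was small in size. RPL10A on shBrit1 replicate 1 was at 13.5465, above 13.4324 to 13.4503 on the others. RPL35A on shBrit1 replicate 2 was at 14.3044, below 14.3743 to 14.3844 on the others. PFDN5, a prefoldin subunit from the list of other TOP genes, was at 13.7294 on shBrit1 replicate 2, below the others. The shControl group, with 3 arrays, was not checked in this way.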

How the results depend on the processing

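Over the alternatives, 13 members were called higher and 4 lower in all 18 settings, 17 were never called and 1, RPL34, was called in both directions. The 32 named members gave 544 comparisons, of which 487 kept direction and call, 33 lost the call, 10 gained it and 14 changed sign. Cyclic loess gave 36 members higher, beside 3603 of 12372 genes tested, and a median of 0.36. Leaving out 1 array gave 16 to 25 higher, 4 to 9 lower (9 without shControl replicate 3) and a median of 0.12 to 0.25. Without shControl replicate 3, 4244 of 12125 genes tested were higher and 4227 lower. The paralog ratios ranged, over these, from 0.47 to 0.54 for RPS27L, -0.72 to -0.13 for RPL39L, -1.02 to -0.51 for RPL26L1 and -1.10 to -0.82 for RPL7L1. With the mean of all kept probes the ratio of RPS27L was 0.2975. The main fit did not pair the samples by replicate number. Deviations of arrays with the same number correlated at 0.10, -0.02 and 0.09, and shBrit1 replicates 1 and 3, but not 2, matched best with their own number. With deviations taken from means of 3 or 4 arrays, these correlations cannot settle whether the numbers pair the samples. With the replicate number as a block 17 members were higher and 4 lower, with a median of 0.20. The 4 paralog ratios then had adjusted exact permutation p of 0.25, 0.5, 0.25 and 0.25. The groups share only 3 replicate numbers, too few for a small permutation p-value, so these p-values do not bear on the ratios. All-gene calls under the block were 3216 higher and 3253 lower.

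Signs changed for genes with small differences or with probes that disagreed. Under median scaling RPL39L was at -0.2188 and RPS27 at -0.0336. Under cyclic loess RPS24 was at 0.0121, RPS28 at 0.1695, RPS6 at 0.0993 and RPL5 at 0.1608. With the mean of all kept probes RPL13 was at -0.0096 and RPL36 at -0.0894. Leaving out 1 array gave RPL39L from -0.3734 (without shControl replicate 3) to 0.2721 and RPS27 from -0.0278 (without shControl replicate 3) to 0.1149. It gave RPL36AL from -0.1248 (without shControl replicate 3) to 0.2620, RPL26L1 from -0.5296 to 0.2228 (without shControl replicate 1) and RPS6 from -0.0759 to 0.0233 (without shControl replicate 2). The cause was not tested. Limits are 1 hairpin per group, the unknown origin of replicates, probes read without their sequences, and the spread added by shControl replicate 3, which was kept.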
